A study of Mus musculus with 12 samples.

Results

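Per2, Cry2, Nr1d2 and Tef are 4 genes of the circadian clock and its output, examined here for N6-methyladenosine (m6A), a methyl mark on adenosines inside mRNA. Every peak that the authors' deposited table assigns to one of these 4 gene names was taken, which gave 5 peaks of 17503 with a gene name, in 4 of 10277 genes. In the study, livers of C57BL/6 mice were profiled by immunoprecipitation of m6A-bearing RNA, in which fragmented poly(A) RNA is pulled down with an antibody against m6A (the IP library) and sequenced beside untreated mRNA (the input library). By their labels the 12 libraries form 4 groups, each of 3 replicates: IP and input from wild-type mice, and IP and input from mice deficient in Mettl3. Mettl3 encodes the catalytic subunit of the main m6A methyltransferase. The sources used here do not say how the deficiency was made, in which cells, how old the mice were or at which hour the livers were taken. The hour bears on clock genes in particular, because their transcripts rise and fall over the day.

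The mammalian clock is a loop of transcription and translation. CLOCK and its partner BMAL1, the product of Arntl, switch on the Period and Cryptochrome genes through a DNA element called the E-box, and the PER and CRY proteins then return to the nucleus and repress that activity. A further loop runs through the nuclear receptors REV-ERB and ROR, which act on Arntl, and the PAR bZIP factors carry the rhythm to output genes, many of them metabolic genes in liver. m6A, read by YTH-domain proteins, is known to influence the stability and translation of transcripts and is typically dense near stop codons and in 3′ untranslated regions (UTRs).

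All values below are the authors' own, 1 per peak, from their comparison of m6A enrichment between the genotypes. No value per library was used here, so read depth, the spread between mice and the level of each transcript are unknown, and no error can be set beside a fold change. A peak is termed called where its deposited false discovery rate (FDR) is 0.05 or below, that is a log10 FDR of -1.3 or below. It is not known whether this FDR includes the variation between replicates. The header does not name the numerator of the fold change. The design makes it likely that negative means less m6A enrichment without Mettl3, and changes are described here only as negative or positive. All 12 marker genes of liver cell types that were looked up had a listed peak, the hepatocyte genes Alb, Ttr, Apoa1 and Cyp2e1 among them.

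All 5 peaks of the 4 clock genes were negative and called. Across the table, 76.2% of listed peaks were called in either direction, and 40.6% were negative and called. The 4 genes were picked with such results known, so their common sign is a description. By leading peak, which is the peak of a gene with the smallest FDR, the order ran from Nr1d2 (-1.98) through Per2 (-1.89) and Tef (-1.27) to Cry2 (-0.95) on the log2 scale in the authors' deposited table. The range of 1.03 means that the ratios of the outer genes, Nr1d2 and Cry2, differed 2.04-fold. Nr1d2 and Per2 lay 0.09 apart, Per2 and Tef 0.62, and Tef and Cry2 0.32. Without a spread between mice, which of these neighbours differ cannot be told.

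Per2 encodes the PERIOD protein that, with CRY, closes the negative limb of the clock. In the authors' deposited table its single peak (gene ENSMUSG00000055866) lies on chromosome 1 of mm10 from 91416042 to 91419487, is annotated 3′ UTR and spans 3446 bp. The log2 fold change was -1.89, a ratio of 0.27, with a log10 FDR of -58.6 in the authors' deposited table. This was the lowest FDR among the 5 peaks, and 15.8% of all listed 3′ UTR peaks had a lower one. Of the 9804 listed 3′ UTR peaks 11.7% were more negative, as were 22.1% of the 4799 that were negative and called. The RefSeq span of Per2 on the same build runs from 91415977 to 91459351. The deposited distance from the transcript start, 39837 bp, places that start 27 bp inside the upper end of this span, so the gene reads from right to left on the chromosome. The peak therefore began 39864 bp into the gene, after 91.9% of its length, and stopped 65 bp short of its end. Widths are genomic, introns included, so 3446 bp is not a length on the RNA.

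Cry2 encodes a cryptochrome, the partner of PER in repression. Its single peak (ENSMUSG00000068742) lies on chromosome 2 from 92403646 to 92403975, is 330 bp wide and annotated 3′ UTR in the authors' deposited table. It reached exactly to the RefSeq end of the gene, with 0 bp left over. The log2 fold change of -0.95, a ratio of 0.518, was the smallest of the 5, with a log10 FDR of -8.69 in the authors' deposited table. It was also smaller in size than most called negative peaks of its kind: 72.4% of negative and called 3′ UTR peaks were more negative. Cry2 is the sole gene of the 4 whose change was below 1 in size on the log2 scale.

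Nr1d2 encodes REV-ERB beta, a nuclear receptor that represses Arntl and other genes, and was the one gene of the 4 with 2 peaks. In the authors' deposited table (ENSMUSG00000021775, chromosome 14) the leading peak runs from 18214817 to 18215474, is 658 bp wide and is annotated to exon 5 of 8. Its log2 fold change was -1.98, a ratio of 0.253, with a log10 FDR of -9.53 in the authors' deposited table. Among the 3447 listed exon peaks 13.7% were more negative. The other peak, from 18206624 to 18206833, is annotated 3′ UTR and is 210 bp wide, and the authors' deposited table gives -1.15, a ratio of 0.451. That peak lay close to the threshold, with a log10 FDR of -1.37 (FDR 0.0427) and a deposited p-value of 0.02, and it is no longer called at an FDR of 0.01. Of the listed 3′ UTR peaks 80.0% had a lower FDR. The exon peak was lower than the 3′ UTR peak by a log2 difference of -0.83, which has no error here, and 7983 bp of genome separate the peaks. The exon peak began 23632 bp into the 35051 bp gene and the 3′ UTR peak 32273 bp into it, which leaves 2568 bp to the gene's end.

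Tef encodes a PAR bZIP factor, one of the activators through which the clock reaches its output genes in liver. Its single peak (ENSMUSG00000022389) lies on chromosome 15 from 81821228 to 81824022, is annotated 3′ UTR and spans 2795 bp in the authors' deposited table. The log2 fold change was -1.27, a ratio of 0.415, with a log10 FDR of -25 in the authors' deposited table. This is near the middle of its kind, since 53.5% of negative and called 3′ UTR peaks were more negative. The RefSeq span of Tef runs from 81802673 to 81826863, and 2841 bp of it follow the peak.

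**Figure D1:**
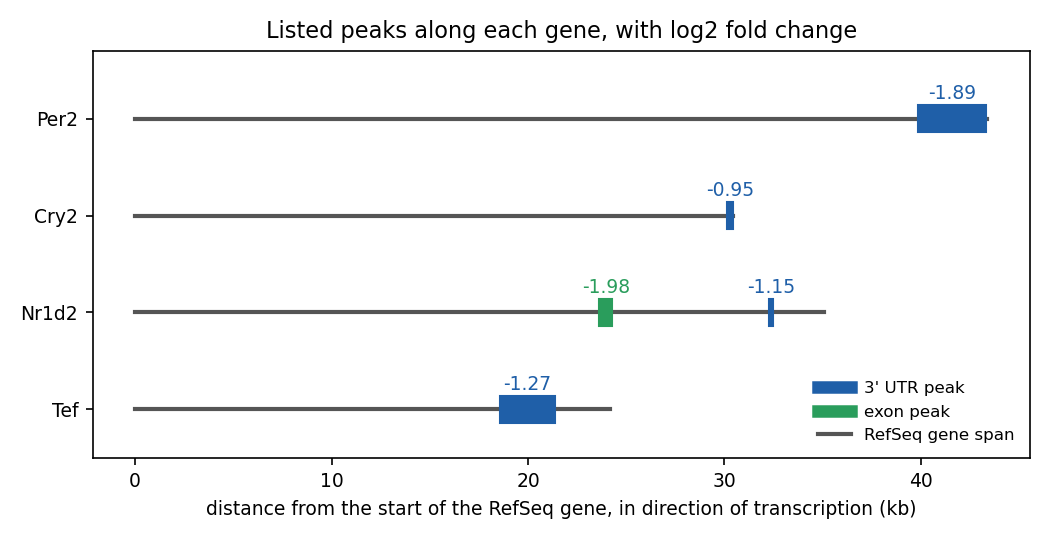
The 4 genes are drawn to scale as lines, in kb from the start of the RefSeq gene in the direction of transcription, with each listed peak as a block labelled by its deposited log2 fold change. All 5 blocks lie in the later part of their gene, and the exon peak of Nr1d2, after 67.4% of the gene, is the earliest on this scale.

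The 5 peaks all lay in the later part of their gene. In the authors' annotation 4 of the 5 lie in a 3′ UTR and 1 in another exon, and none is a 5′ UTR peak. Of all 17503 listed peaks, 9804 are annotated 3′ UTR, 3447 exon and 4252 5′ UTR. Of the 7107 negative and called peaks, 4799 are 3′ UTR peaks. The 4 genes were picked with such results known, so their shared position is a description. Among all listed 3′ UTR peaks 48.9% were negative and called, among exon peaks 38.6%. Each of the 5 lay wholly within the RefSeq span of its gene and overlapped no other RefSeq gene. No row without a gene name overlapped any of the 4 spans. The distances to the gene end, 65 bp in Per2, 0 bp in Cry2, 2568 bp in Nr1d2 and 2841 bp in Tef, can be read against a median of 1075 bp (quartiles 30 and 2452) over 3651 negative and called 3′ UTR peaks with a usable annotation. For 2314 positive and called ones the median was 19 bp (quartiles 0 and 874.2). The peaks of Per2 and Cry2 were thus nearer to the end than the median negative peak, and those of Nr1d2 and Tef lay beyond its upper quartile.

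Widths of the 5 peaks ran from 210 to 3446 bp, against a median of 420 bp for listed 3′ UTR peaks and 369 bp for exon peaks. Because wide peaks differ from narrow ones in their fold changes, each was also placed among peaks of its own annotation with a width within 2-fold of its own. Among 1324 such peaks Per2 had 12.2% below it, and the median was -0.83. Tef had 35.8% of 1493 below it, with a median of -0.88. Cry2 had 34.6% of 4975 below it, with a median of -0.29. For the Nr1d2 exon peak the share was 15.8% of 1087 (median -0.99), and for its 3′ UTR peak 21.4% of 4415 (median 0.53). All 5 lay below the median of the peaks most like them in width, Tef and Cry2 by the smallest margins. Of the peaks like it in width, 63.6% were negative and called for Per2, 65.1% for Tef and 44.8% for Cry2. For the exon and 3′ UTR peaks of Nr1d2 these shares were 58.0% and 32.0%. The 4 genes were picked with such results known, so their place below the medians is a description.

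**Figure D2:**
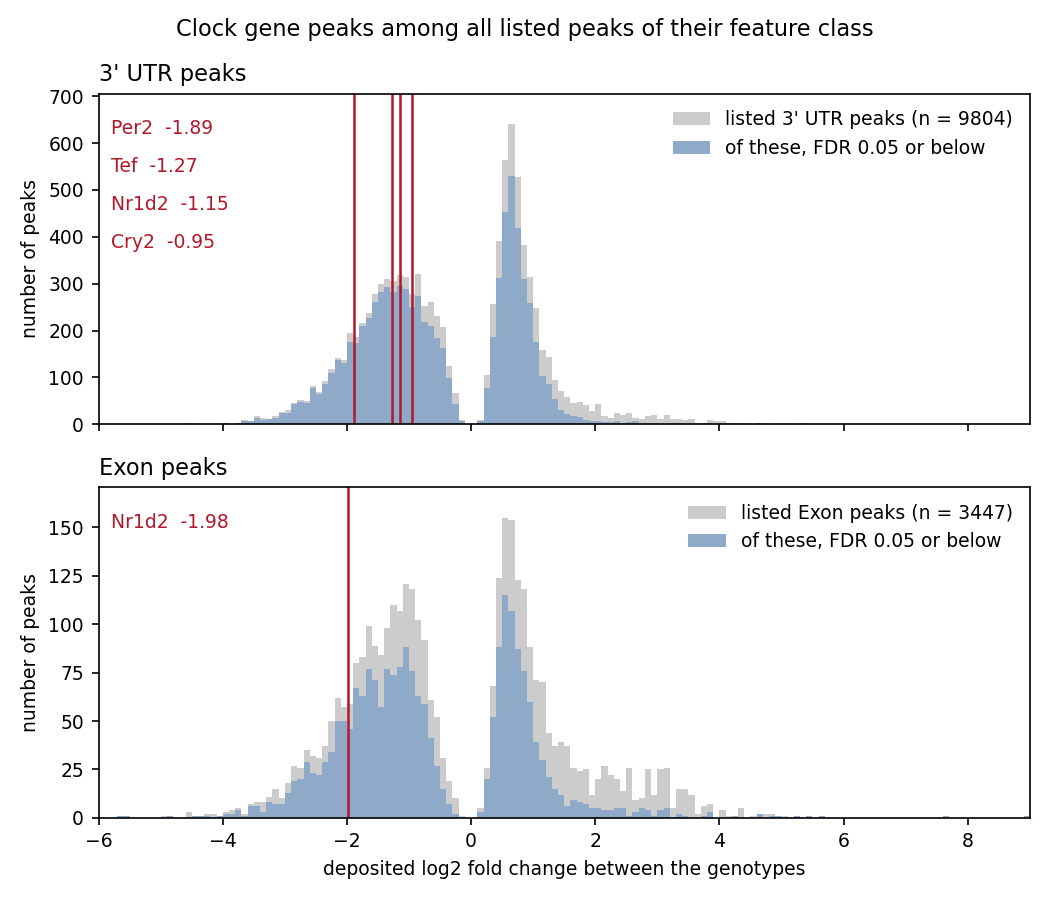
Histograms show the deposited log2 fold changes of all listed 3′ UTR peaks (upper panel) and exon peaks (lower panel) over a log2 axis from -6 to 9, with called peaks in blue and the clock gene peaks as red lines. Per2 at -1.89 and the exon peak of Nr1d2 at -1.98 stand on the outer side of the negative mode, while Tef, Cry2 and the 3′ UTR peak of Nr1d2 fall inside it.

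Peak number was ordinary: Per2, Cry2 and Tef had 1 peak each, as did 55.3% of all genes with a peak, and Nr1d2 had 2, as did 27.9%. Peaks assigned to other genes within 60 kb did not share one sign. In all, 18 such peaks of 11 genes were listed, of which 7 were negative and called, 8 positive and called and 3 not called. Over all listed peaks 40.6% were negative and called and 35.6% positive and called. The closest belong to Hes6, a gene for a bHLH transcription factor, whose span lies 1938 bp beyond the end of Per2. The authors' deposited table gives -0.84, -0.76 and 0.71 for the 3 Hes6 peaks, all called, against -1.89 for Per2. Near Tef, the 3′ UTR of Tob2 held a called positive and a called negative peak, at 1.06 and -1.73 in the authors' deposited table. Upstream of Nr1d2, the 3 peaks of the ribosomal protein gene Rpl15 were positive and called, from 0.78 to 1.53 in the authors' deposited table, while Nkiras1 stood at -1.59. The neighbours thus took both signs, as did listed peaks in general. Most of the positive and called neighbours are 5′ UTR peaks, and most of the negative and called ones are 3′ UTR peaks. The 4 clock genes have no 5′ UTR peak, so the 5′ UTR peaks among the neighbours have no counterpart in them. The 3′ UTR peaks among the neighbours do, and called ones of both signs were among these.

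**Figure D3:**
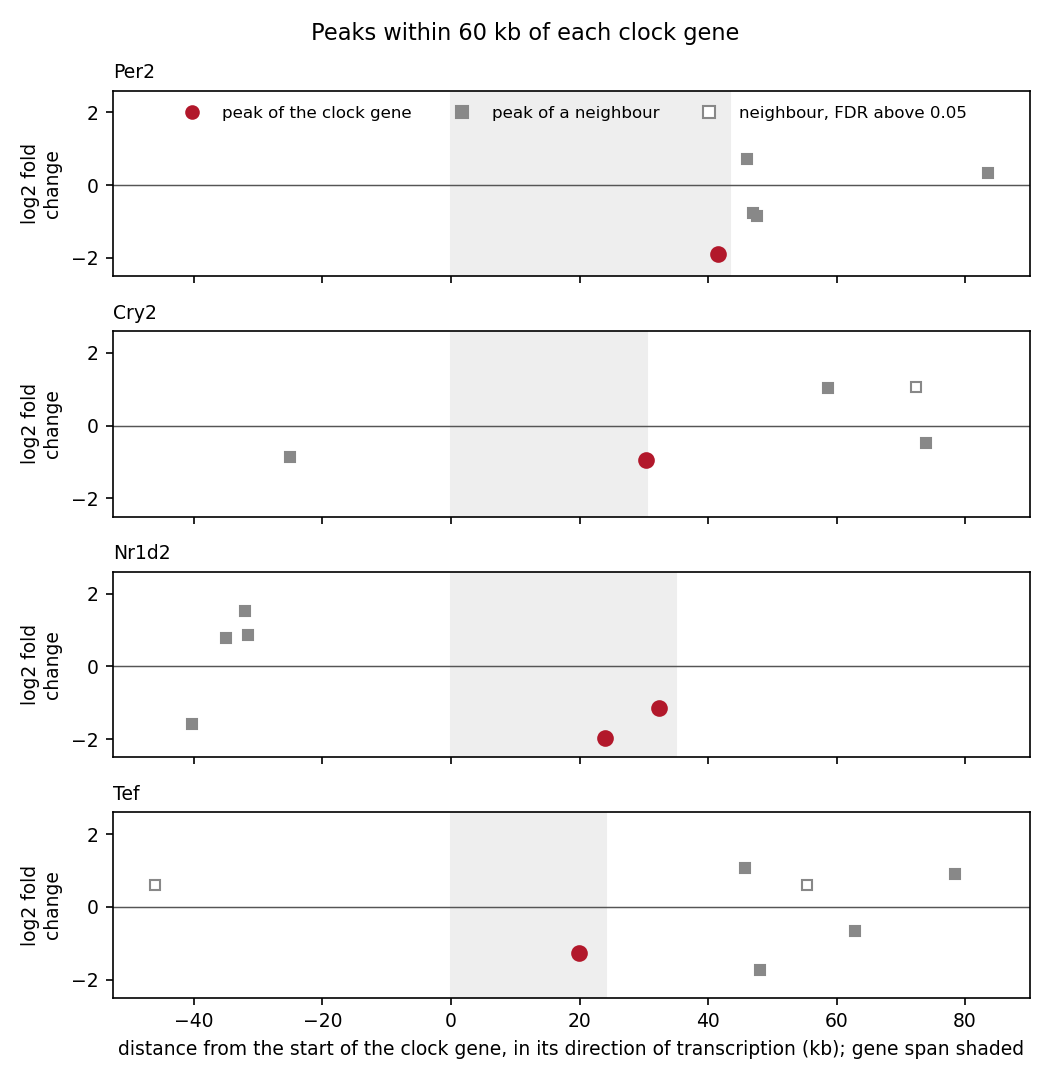
Deposited log2 fold changes of the clock gene peaks (red circles) and of peaks assigned to other genes within 60 kb (grey squares, open where not called) are plotted by distance in kb from the start of each clock gene, whose span is shaded. The neighbours run from -1.73 to 1.53 and lie on both sides of 0 around each of the 4 genes.

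Set in the wider clock, the 4 genes were on the side that most of its listed genes took. A list of 28 clock genes, sorted by role, was used, of which 18 had a listed peak, 14 of them outside the 4 genes. By leading peak, 13 of the 18 were negative and called, 4 positive and called and 1 not called, with a median of -1.75. Without the 4 genes the counts were 9, 4 and 1 of 14, with the same median of -1.75. Over all genes 47.6% were negative and called by leading peak and 33.6% positive and called, with a median of -0.52. The list was put together with results for part of it known, and no test was made of it. Peaks of Clock, Npas2, Per1, Per3, Cry1, Ciart, Nr1d1, Bhlhe41 and Csnk1e were not analysed here, so Per2 and Cry2 cannot be set beside their paralogues Per1 and Cry1.

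Among the listed transcription factor genes outside the 4, Arntl alone was positive, Rora, Hlf, Nfil3 and Bhlhe40 were negative and called, and Dbp was not called. In the authors' deposited table Arntl, the BMAL1 gene, held a single called peak at 2.11, annotated 5′ UTR and 31.1 kb wide on the genome (log10 FDR -2.63). The receptor gene Rora, whose product opposes REV-ERB on Arntl, stood at -2.34 in a 3′ UTR peak (log10 FDR -16.3 in the authors' deposited table), beside -1.98 for Nr1d2. Its exon peak, at -1.08 there, was not called. The relatives of Tef among the PAR bZIP genes were Hlf, with 2 called 3′ UTR peaks at -1.34 and -1.15 in the authors' deposited table, and Dbp, whose exon peak at -2.22 was not called (log10 FDR -0.44). The value of Tef, -1.27, lay between the 2 values of Hlf. Nfil3, a repressor at the same DNA element as the PAR bZIP factors, had -2.43 in the 3′ UTR (log10 FDR -434, the lowest value in the table) and -1.30 in a peak annotated 5′ UTR that covers 82.8% of the gene, both called in the authors' deposited table. Bhlhe40, which encodes the repressor DEC1, had 2 called 3′ UTR peaks at -2.53 and -2.44 there.

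Genes for enzymes that act on PER and CRY proteins went both ways. The 8 listed genes of this kind comprised 5 with a negative and called leading peak and 3 with a positive and called one, shares of 62.5% and 37.5% against 47.6% and 33.6% over all genes. Fbxl21 (-2.32), an F-box gene whose product binds CRY for ubiquitination, was called and negative in the authors' deposited table. Fbxw11, which like Btrc encodes a beta-TrCP protein that binds PER, had called 3′ UTR peaks at -2.72 and -0.44 there. The leading peak of Btrc was positive and called at 0.93 (log10 FDR -1.64). The kinase gene Csnk1d stood at 0.76 (5′ UTR) and Gsk3b at 0.71 (3′ UTR), both called, in the authors' deposited table. Csnk1a1, another casein kinase gene, was split, and the authors' deposited table gives 0.72 for its 5′ UTR peak and -0.87 for its 3′ UTR peak, both called. Usp2, a deubiquitinase gene, stood at -1.63 in a peak annotated 5′ UTR that is 45.5 kb wide, covers 99.8% of the gene and lies only 62.8% inside it, so its feature label covers the whole gene.

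**Figure D4:**
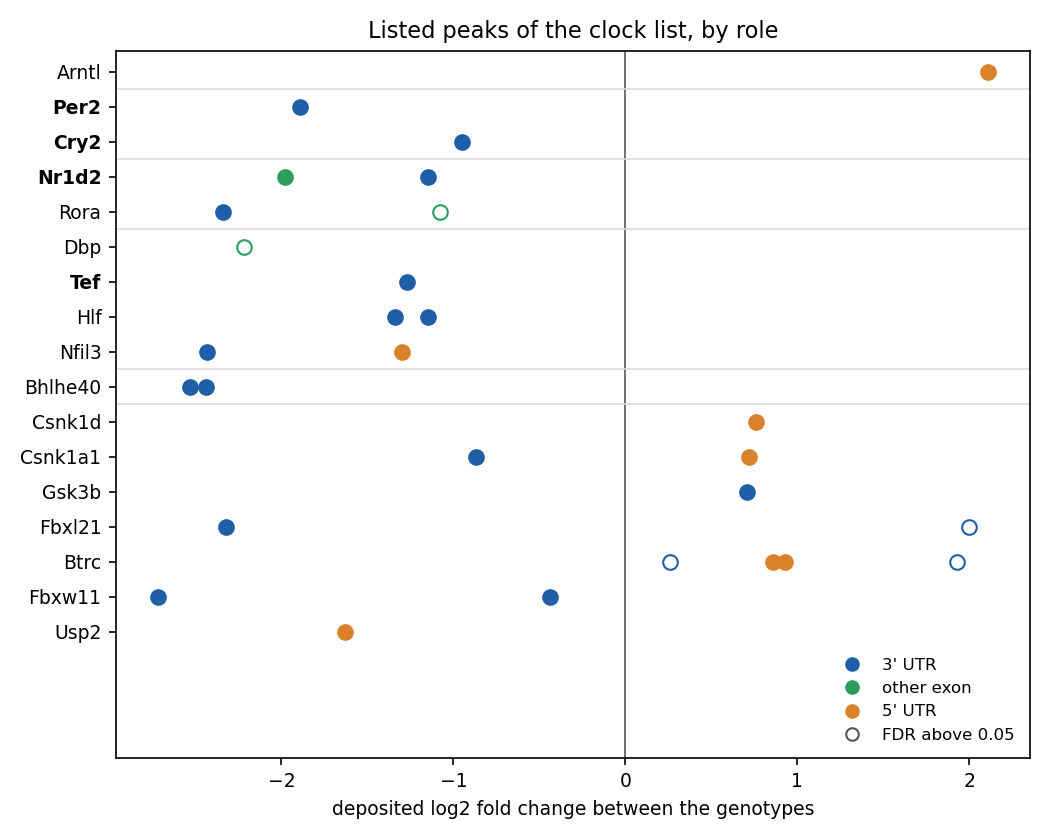
Each point is a listed peak of 17 of the 18 clock genes, placed by its deposited log2 fold change, coloured by annotated feature and open where not called, with genes grouped by role and the 4 genes of interest in bold. Points of the 3′ UTR and other exons lie mostly left of 0, and 5′ UTR points mostly right of it, the exceptions there being Nfil3 and Usp2.

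Within the clock list the sign differed by feature. Of its 18 peaks in 3′ UTRs 14 were negative and called, 1 positive and called and 3 not called. Without the peaks of Per2, Cry2, Nr1d2 and Tef, genes picked with such results known, 10 of 14 were negative and called. Of these 14, 1 was positive and called and 3 were not called. Of the 8 peaks of the clock list in 5′ UTRs 2 were negative and called, 5 positive and called and 1 not called. Several of these are wide on the genome, from 8.1 kb in Csnk1d and 30.9 kb in Btrc to 45.5 kb in Usp2. Their label therefore need not mean the start of the transcript alone. Across all listed 3′ UTR peaks 48.9% were negative and called and 32.1% positive and called. Across all listed 5′ UTR peaks 23.0% were negative and called and 53.4% positive and called. Per2, Cry2, Nr1d2 and Tef had no listed 5′ UTR peak, so a comparison of both ends of the transcript could not be made inside these genes.

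Promoter sequence is shown for the genes where a known clock element was found, since the 4 genes belong to the clock or its output. The m6A peaks lie far downstream and the values above concern RNA. RefSeq promoters of assembly GRCm38.p6, from 250 bases before to 50 after each start, matched 3 of the 4 genes, with 4 entries, 2 of them of Tef. Per2 had no entry. Both strands were searched for the E-box CACGTG, bound by CLOCK and BMAL1, the D-box as TTATGTAA or TTACGTAA, bound by PAR bZIP factors, and AGGTCA, the core of the element of REV-ERB and ROR. Both Tef promoters held an E-box, 121 and 132 bases before their start sites, and an E-box stood in 7.15% of 32851 promoters. The Nr1d2 promoter held AGGTCA, 71 bases before the start, as did 16.3% of promoters on either strand. No D-box was found in the 4 entries (1.06% of all promoters), and none of the 3 motifs in that of Cry2. The windows below are read along the gene, with the motif in capitals, at chr15:81802519-81802578 and chr15:81811249-81811308 (plus strand) and chr14:18239151-18239210 (minus strand).
Tef, first start: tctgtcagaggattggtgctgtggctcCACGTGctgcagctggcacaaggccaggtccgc
Tef, later start: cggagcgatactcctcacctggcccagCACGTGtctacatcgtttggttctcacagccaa
Nr1d2: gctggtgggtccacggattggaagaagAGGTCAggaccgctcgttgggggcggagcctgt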

How the data were processed

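The 12 libraries fall into 4 groups of 3, and the values come from 1 table of the authors' own comparison. HISAT2 2.1.0 aligned the reads and mm10 was the build, as the submitters' processing notes name them. Which peak caller, filters and model the comparison used is not given in the sources used here. The authors deposited, per the file headers, a log2 fold change, a log10 FDR and a p-value rounded to 2 decimals for each peak. The deposited log10 FDR is treated as a score, since its lowest value of -434 is a floor shared by 485 peaks. Deposited starts, ends, widths and distances are other values, used as positions. The table held 17692 rows, of which 189 had no gene name, with their last cells in another order, and were left out.

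The members, the clock list and the alternatives were chosen with earlier results of these data known. The rule for names took the 4 genes with every peak, the other listed genes of the clock list, and neighbours of the 4 genes. Some genes of the list stay in its counts and are not reported here by name. Genes were matched by symbol to RefSeq of assembly GRCm38.p6, the same build as mm10. Counts, medians and shares were computed with Python 3.11.15, numpy 2.4.6, pandas 2.3.3 and matplotlib 3.10.9. The choice of leading peaks was run on simulated data in which each gene had a single called peak or none. That run checked the code alone, without ties among called peaks or genes with several of them. Shares of peaks lying lower describe the table and are no test. No genome sequence was used, so the planned motif search within peaks was not run.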

Additional observations from a re-analysis of the deposited data

How the results depend on the processing

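The results were recomputed under 28 alternatives. Many of these are counts, which have no sign. For the leading values no alternative could reverse the sign, since all 5 peaks are negative and the median subtracted is positive. With peaks of up to 1000 bp alone, the 5 negative and called peaks became 3, since those of Per2 and Tef are wider. With an FDR of 0.01 or of 0.001, 4 were left, without the 3′ UTR peak of Nr1d2, and with a change of at least 1 in size 4 were left, without that of Cry2. The mean over both peaks of Nr1d2 was -1.565 in place of -1.98. With 0.34, the median over all listed peaks, subtracted, the leading values were -2.32 for Nr1d2, -2.23 for Per2, -1.61 for Tef and -1.29 for Cry2. For the clock list the negative and called count was 13 of 18, and 11 of 18 with a change of at least 1 in size. It stayed at 13 at an FDR of 0.01 and by the mean over peaks. With the median subtracted it was also 13, but the calls were kept and no negative gene could leave the count. Other alternatives changed which genes were counted: 9 of 13 with peaks of up to 1000 bp, and 9 of 14 without the 4 genes. By KEGG term it was 10 of 15, and by the wider GO term of circadian rhythm 31 of 52. No share over all peaks or genes was set beside the counts at an FDR of 0.01 or of 0.001. Nor was one set beside those for narrow peaks, a change of at least 1, the median subtracted or the mean over peaks. The lists by GO and KEGG term, the list of narrow peaks and the list without the 4 genes were added after the data were seen. The overlap with RefSeq spans used position alone, as the table gives no strand. No paired analysis was possible because no values per library were used, and leaving out each replicate was not run for the same reason. Depth is unknown, so what it limits cannot be given.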

Other observations

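The deposited annotation draws the clock in other ways than the list above, beside which 47.6% of all genes were negative and called by leading peak and 33.6% positive and called. Its KEGG term of circadian rhythm took in 15 genes with a listed peak, of which 10 were negative and called by leading peak and 5 positive and called, with a median of -1.38. Its GO term of circadian rhythm took in 52 genes, 31 negative and called, 16 positive and called and 5 not called, with a median of -1.04. Per2 and Cry2 carry both terms, and Nr1d2 and Tef carry neither. Among promoters of the clock list, 21 genes had an entry, and an E-box CACGTG stood in those of 5 of them, namely Per1, Cry1, Ciart, Bhlhe41 and Tef, of which Tef is the one with a listed peak.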
